A study of Mus musculus with 6 samples.

Results

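Ribosomal protein genes were compared between 2 immortal mouse melanocyte lines, 1 heterozygous for a LacZ insertion in Sox10 and 1 wild type. The members were all genes whose symbol starts with Rpl or Rps followed by a digit, p or a. The S6 kinases (Rps6k) and symbols with -ps, which marks pseudogenes, were left out. Of the 22180 genes measured by a probe set with 1 gene symbol, 69 met this rule.

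Expression was measured on 6 Affymetrix arrays of 1 colour, 3 for each line. The line labelled Sox10LacZ/+ is called heterozygous here and came from Ink4a-Arf null mice of 3 days. The other, melan-Ink4a-Arf-1 (melan-a), is called wild type, and its label names no Sox10 allele but Cdkn2a tm1RDp/tm1RDp. Both lines thus lack Ink4a-Arf (Cdkn2a, which encodes p16Ink4a and p19Arf, the latter a brake on Mdm2), both are on a background backcrossed to C57BL/6J, and both grew in RPMI with 10% serum, 200 nM of a phorbol ester, 200 pM of cholera toxin and 10% CO2. Each genotype is represented by 1 line, so genotype and line cannot be told apart. The labels do not say whether the 3 arrays of a line came from separate cultures, so the p-values measure the spread between these arrays, which may be technical.

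The ribosome reads messenger RNA and joins amino acids into protein. Its small subunit decodes the message, its large subunit forms peptide bonds, and each holds ribosomal RNA and a set of ribosomal proteins, most of them encoded by 1 active gene and many inactive copies elsewhere in the genome. Their mRNAs begin with a pyrimidine tract through which mTOR signalling controls translation, a step that an array of RNA levels does not measure. In mice, mutations of some ribosomal proteins are known to stabilise p53 and to darken the skin or white-spot the belly. Sox10 is a transcription factor that melanocytes need from the neural crest onward.

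Ribosomal protein mRNAs differed little between the lines. In a limma fit over all genes, 6 of the 69 were higher in the heterozygous line at a Benjamini-Hochberg adjusted p below 0.05, 0 were lower, and 63 did not pass. The 6 that rose were Rpl3, Rpl30, Rps7, Rps14, Rps19 and Rps3a1, by 1.26 to 1.40-fold. Of the 22180 genes, 7.46% passed with a higher and 5.92% with a lower level, 13.4% in all. Of the members 8.70% passed, all of them higher. Among genes at or above the 40th percentile of signal (log2 5.20), 10.5% were called higher and 8.23% lower, 18.7% in all. Of the 65 members at or above it, 9.23% were called, all higher. The members' share called higher was thus near that of all genes, while their share called in either direction was smaller. At an unadjusted p below 0.05 in limma, 17 members were higher and 0 lower. Of all 22180 genes, 2989 were higher and 2544 lower at that threshold. Of the 14668 genes at or above the 40th percentile, 2607 were higher and 2151 lower.

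The log2 differences (heterozygous minus wild type) ran from -0.17 for Rpl39 to 0.49 for Rpl3, with a median of 0.10, against a median of 0.001 over all genes. A positive difference was found for 51 members (73.9%), where 50.4% of all genes and 51.5% of those at or above the 40th percentile had one. No member differed by 0.5 or more on the log2 scale, whereas 9.08% of all genes and 12.8% of those at or above the 40th percentile did. For 31 members the difference was less than 0.1 in size. For 23 of the 69 members every heterozygous array was above every wild-type array, and for 1, Rpl39, below it. Of all genes 17.0% were separated in the first direction and 14.6% in the second. Among genes at or above the 40th percentile these shares were 21.9% and 18.2%, and 22 of the 65 members there were separated upward. In a bulk measurement, fewer cells of a type and less RNA per cell cannot be told apart, and array values normalised to each other give no total amount of ribosomal protein mRNA per cell.

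**Figure D1:**
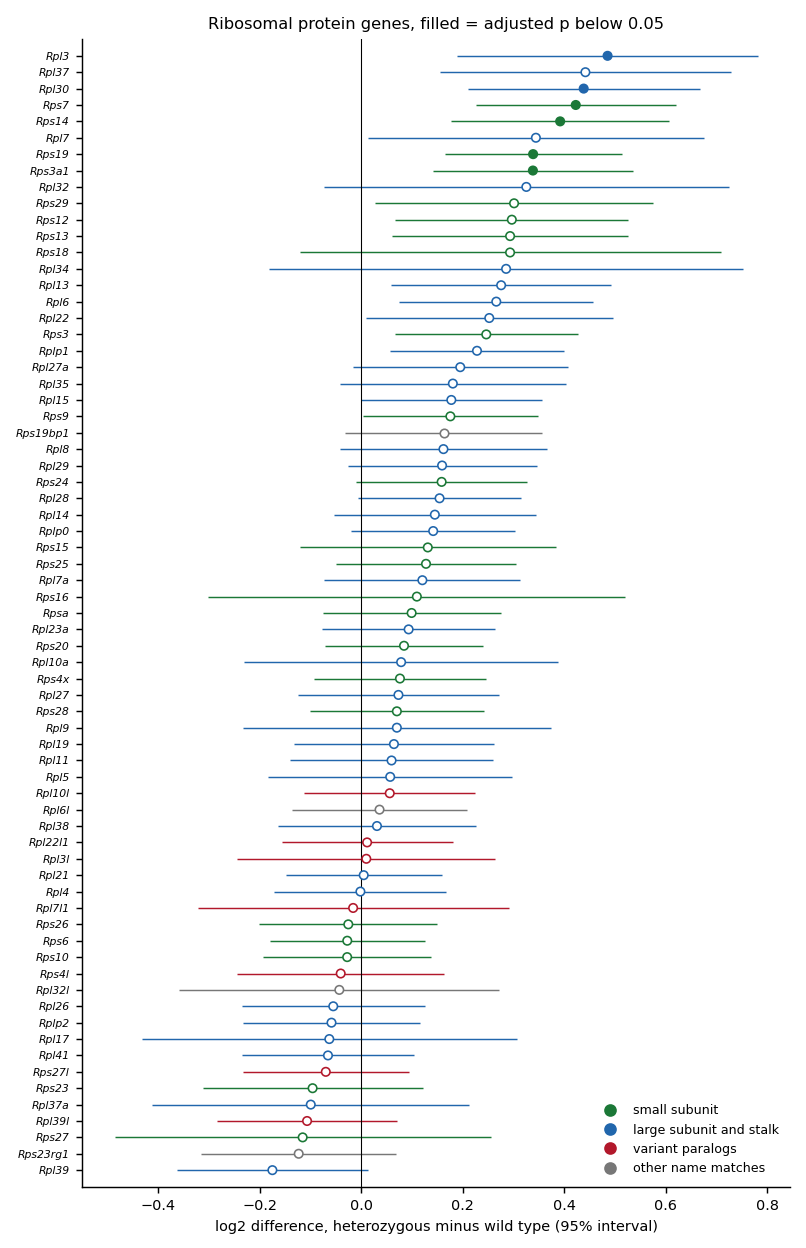
Log2 difference (heterozygous minus wild type) of each of the 69 genes on the horizontal axis, with bars for the 95% confidence interval of the limma fit, filled points for an adjusted p below 0.05 and colours for the role of the protein. The 6 filled points lie between 0.34 and 0.49, and most of the other genes sit to the right of 0 with intervals that cross it.

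Among the large subunit proteins, Rpl3, which sits close to the peptidyl transferase centre, had the largest difference. Its log2 signal was 10.96, 11.42 and 11.00 on the wild-type arrays and 11.56, 11.71 and 11.56 on the heterozygous arrays. All heterozygous arrays were above the highest wild-type array, wild-type replicate 2. The means were 11.12 ± 0.25 and 11.61 ± 0.09 (SD, n = 3 each), a difference of 0.49 (SE 0.13, 95% interval 0.19 to 0.78, adjusted p 0.0439 in limma).

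Rpl30, a large subunit protein known to regulate the splicing of its own transcript in yeast, also passed. Its signal was 5.61, 5.35 and 5.62 in the wild-type line and 6.04, 5.86 and 5.99 in the heterozygous line. The groups did not overlap, and replicate 2 was the lowest array of each. The difference was 0.44 (SE 0.10, interval 0.21 to 0.67, adjusted p 0.0232 in limma). Just outside the threshold was Rpl37, another large subunit gene, with 6.68, 6.33 and 6.61 against 6.96, 7.17 and 6.81. Its difference was 0.44 as well, with an SE of 0.12 and an adjusted p of 0.0553 in limma.

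Among the small subunit genes, 4 passed. Rps7, whose protein takes part in processing of the small subunit RNA and can bind Mdm2, the ubiquitin ligase of p53, had 7.92, 8.14 and 7.94 in the wild-type line and 8.40, 8.49 and 8.38 in the heterozygous line. Its difference was 0.42 (SE 0.09, interval 0.23 to 0.62), with the lowest adjusted p of the members, 0.0143 in limma. Rps14, a protein of the small subunit platform whose human counterpart is lost in the 5q- syndrome, had 6.53, 6.34 and 6.32 against 6.66, 6.86 and 6.84. The groups did not overlap, though wild-type replicate 1 and heterozygous replicate 1 were close to each other, and the difference was 0.39 (SE 0.09, adjusted p 0.0281 in limma).

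Rps19, the gene most often mutated in Diamond-Blackfan anaemia, had 9.48, 9.40 and 9.34 in the wild-type line and 9.72, 9.71 and 9.81 in the heterozygous line. Every heterozygous array was above every wild-type array, and the difference was 0.34 (SE 0.08, adjusted p 0.0218 in limma). Rps3a1 encodes a small subunit protein near the site where initiation factors bind, and had 9.32, 9.20 and 9.13 against 9.44, 9.61 and 9.61. Its difference was 0.34 as well (SE 0.09, adjusted p 0.0369 in limma).

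**Figure D2:**
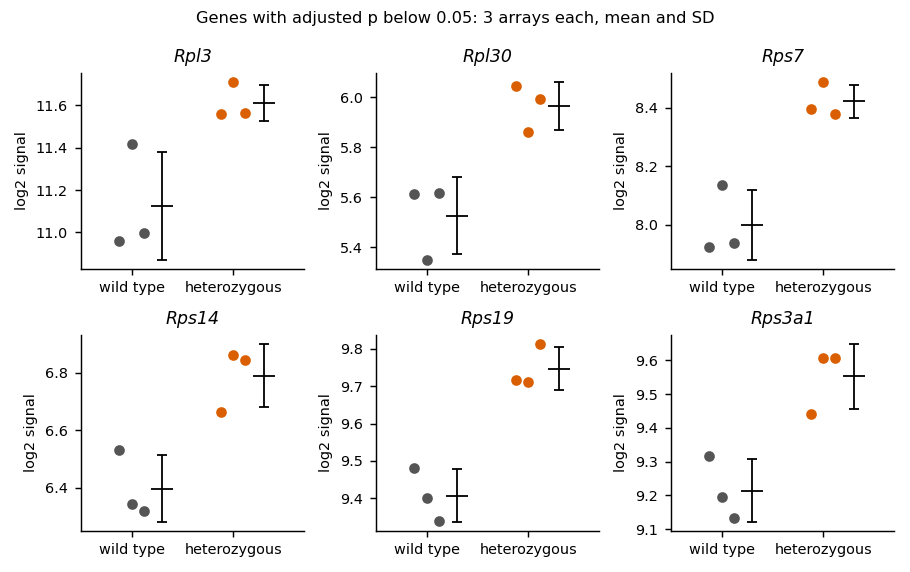
Log2 signal of the 6 genes that passed, with 1 point per array, 3 arrays for each line, and the mean ± SD drawn beside the points. In each panel the 3 heterozygous arrays lie above the 3 wild-type arrays, by the smallest gap for Rps3a1 and Rps14.

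The promoter sequences of the genes that rose are shown because members of the family share start sites rich in pyrimidines and bound by ETS factors. Of the 69 members, 54 matched the RefSeq promoter table of GRCm38.p6 by symbol, and of the 6 that rose Rps7, Rps3a1 and Rps19 did. Each window holds 70 bases before and 5 bases from the annotated start. Capitals mark the ETS motif CCGGAAG (or CTTCCGG on the other strand) and the pyrimidine motifs CTTTTC and CTTTCC. Rps19 has 3 annotated starts, of which the first and the second are given, and Rpl37, just outside the threshold, is added.
Rps7, chr12:28635949-28636023, minus strand: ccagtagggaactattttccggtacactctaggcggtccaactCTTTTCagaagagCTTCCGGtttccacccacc
Rps3a1, chr3:86142664-86142738, minus strand: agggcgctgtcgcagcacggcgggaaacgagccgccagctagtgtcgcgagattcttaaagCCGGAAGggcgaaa
Rps19, first start, chr7:24884522-24884596, plus strand: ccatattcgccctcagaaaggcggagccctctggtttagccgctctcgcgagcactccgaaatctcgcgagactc
Rps19, second start, chr7:24884606-24884680, plus strand: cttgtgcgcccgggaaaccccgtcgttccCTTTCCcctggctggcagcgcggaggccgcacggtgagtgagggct
Rpl37, chr15:5116543-5116617, plus strand: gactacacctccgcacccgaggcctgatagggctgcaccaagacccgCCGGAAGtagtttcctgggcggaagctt

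Rps7 and Rps3a1 carried the ETS motif within these windows, as did Rpl37, and neither Rps19 window did. Rps7 and the second start of Rps19 carried a pyrimidine motif, in both before the annotated start and so outside the annotated mRNA. Over the 300-base promoters of the table, CCGGAAG on either strand was found in 23 of the 54 matched members (42.6%) and in 9.93% of all 27025 genes. A pyrimidine motif, CTTTCC or CTTTTC read only in the direction of the gene, was found in 28 members (51.9%) and in 25.9% of all genes. It could lie anywhere in the 300 bases, so this is no count of mRNAs that begin with a pyrimidine tract. The YY1 motif AAGATGGC was found in 3 members (5.56%, against 3.19% of all genes) and TATAAA in 6 (11.1%, against 15.7%), both strands searched. These are letter matches in a window and not measured binding, and they were not set against the expression differences.

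The other members are described by subunit. Of 31 small subunit genes looked for, 23 were measured: 4 passed, 18 had a positive difference, and the median was 0.13. Of 46 large subunit genes, 35 were measured: 2 passed, 28 had a positive difference, and the median was 0.14. The other 19 of the 77 ribosomal protein genes are not analysed here. Of these, 12 appeared on probe sets with several gene symbols, among them Rpl24, Rps2 and Rpl10, and the other 7 had no probe set with a symbol of their own in the annotation used.

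Several members near the threshold were separated between the lines without passing. Rps3, which lines the mRNA entry channel, had 11.20, 11.08 and 11.00 in the wild-type line and 11.36, 11.32 and 11.34 in the heterozygous line, a difference of 0.25 (adjusted p 0.0827 in limma). Rpl6 differed by 0.27 (adjusted p 0.0778), Rps12 by 0.30 (0.0998), Rpl13 by 0.28 (0.105) and Rps13 by 0.29 (0.106), all in limma and all without overlap of the groups. For Rpl34 and Rpl32, wild-type replicate 2 lay far above its group. Rpl34 had 7.49, 8.39 and 7.86 against 8.20, 8.29 and 8.10, and its difference of 0.29 had an adjusted p of 0.453 in limma. Rpl32 had 10.89, 11.51 and 10.82 against 11.30, 11.48 and 11.42, a difference of 0.33 (adjusted p 0.303).

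The remaining small subunit genes did not pass. Rps18, a protein of the head of the subunit, had 9.15, 8.97 and 8.44 in the wild-type line and 8.998, 9.12 and 9.32 in the heterozygous line, so that wild-type replicate 3 alone was low and the difference of 0.29 had an adjusted p of 0.376 in limma. Rps9, which takes part in decoding accuracy, differed by 0.18 and Rps24 by 0.16, both without overlap and with adjusted p of 0.192 and 0.231. Rps29, below log2 5.20 in both lines, differed by 0.30 (adjusted p 0.159), and Rps15, Rps25, Rps16 and Rpsa by 0.10 to 0.13. X-linked Rps4x differed by 0.08 and Rps28 by 0.07, while Rps26 and Rps10 differed by -0.03 each.

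In the large subunit, Rpl7 had 10.01, 9.66 and 9.42 in the wild-type line and 10.09, 9.96 and 10.08 in the heterozygous line. The wild-type arrays spread over more than the difference of 0.34 (adjusted p 0.18 in limma). Rpl15, needed for processing of the large subunit RNA, had 12.11, 12.10 and 11.95 against 12.19, 12.27 and 12.23, separated but with a difference of 0.18 (adjusted p 0.203). Rpl35 differed by 0.18, Rpl8 and Rpl29 by 0.16, and Rpl28 and Rpl14 by 0.15. Rpl7a, Rpl23a, Rpl10a, Rpl27, Rpl9 and Rpl19 differed by 0.06 to 0.12, Rpl21 by 0.01, Rpl26 by -0.05 and Rpl17 by -0.06. Rpl4, which lines the exit tunnel, had 12.25, 12.39 and 12.31 against 12.36, 12.29 and 12.30, with overlapping arrays and an adjusted p of 0.994.

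The stalk of the large subunit, which recruits elongation factors, is built from Rplp0, Rplp1 and Rplp2, and 0 of the 3 passed in limma. Rplp1 had 12.42, 12.31 and 12.27 in the wild-type line and 12.53, 12.61 and 12.55 in the heterozygous line. The groups were separated by a small gap, and the difference of 0.23 had an adjusted p of 0.0903 in limma, its unadjusted p being below 0.05. Rplp0 differed by 0.14 (adjusted p 0.266) and Rplp2 by -0.06 (0.716). The 3 members whose probe sets gave the highest signal, which does not rank mRNA amounts between genes, were Rps6, Rpl41 and Rplp1. Rps6, the ribosomal substrate of the S6 kinases, had 13.00, 12.99 and 12.96 against 12.97, 12.94 and 12.96, so that the lines overlapped and differed by -0.03 (interval -0.18 to 0.13, adjusted p 0.858 in limma). Rpl41, the smallest ribosomal protein, differed by -0.07 (adjusted p 0.665 in limma).

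Only 18 members had a negative difference, and at an unadjusted p below 0.05 in limma 0 of them were lower. Rpl39, an X-linked gene for a small protein of the exit tunnel, had 6.43, 6.61 and 6.45 in the wild-type line and 6.29, 6.27 and 6.40 in the heterozygous line. It was the only member separated downward, with a difference of -0.17 (interval -0.36 to 0.01, adjusted p 0.236 in limma). Among the other standard genes Rps27 differed by -0.12, Rpl37a by -0.10 and Rps23 by -0.10, all with overlapping arrays.

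**Figure D3:**
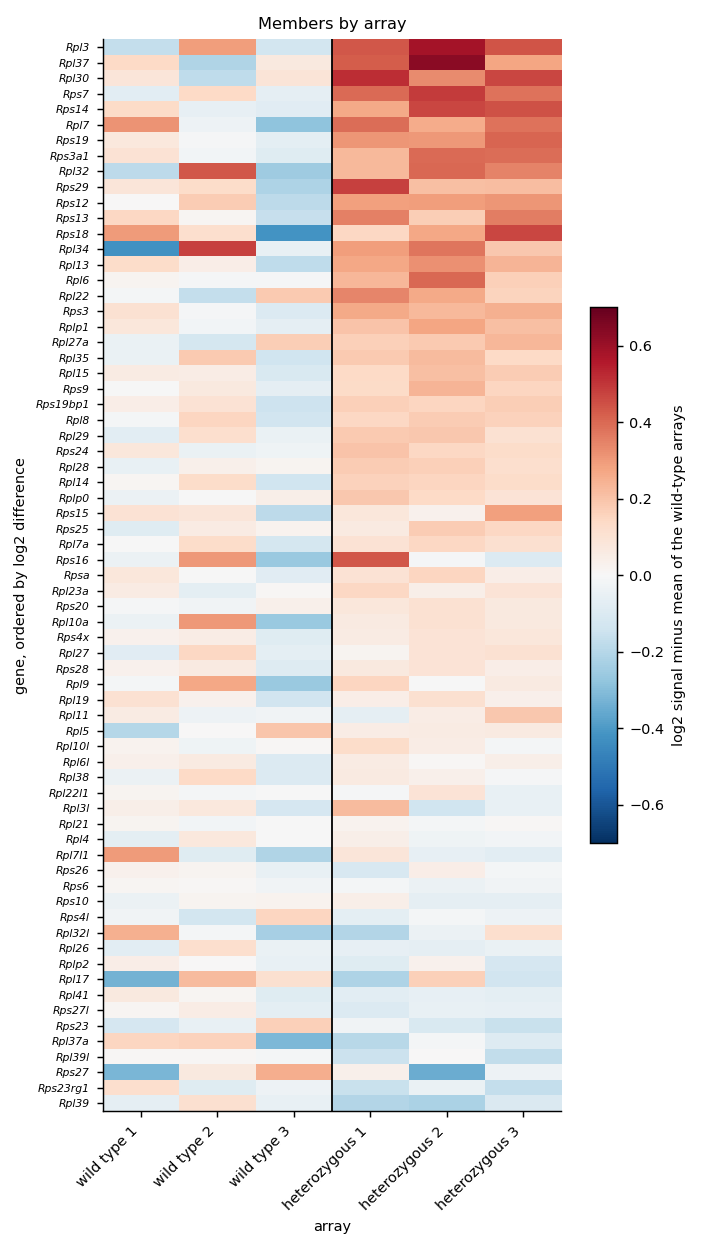
Log2 signal of each member on each of the 6 arrays minus the mean of its 3 wild-type arrays, with rows for genes and columns for arrays. Most rows are above 0 on the 3 heterozygous arrays, and the wild-type columns differ among themselves, replicate 3 being the lowest of the 6 arrays for 34 of the 69 members.

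The spread was unequal between the lines. The median SD of a member was 0.12 over the wild-type arrays and 0.06 over the heterozygous arrays, and it was larger in the wild-type line for 58 of 69 members. Over all genes the medians were 0.12 and 0.08, and the wild-type SD was the larger for 15136 of 22180 genes. Over genes at or above log2 5.20 the medians were 0.13 and 0.06, and the wild-type SD was the larger for 11096 of 14668. The unequal spread was thus not limited to the members. Wild-type replicate 3 had a median deviation of -0.10 from the other wild-type arrays over the members (16 above, 53 below), and of 0.02 over all genes. Without wild-type replicate 3, 2 members passed (Rpl30 and Rps7), 46 had a positive difference, and the median difference was 0.06.

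Without wild-type replicate 2, 10 members passed and the median was 0.14, and without wild-type replicate 1, 5 passed. Without heterozygous replicate 1, 2 or 3, the count was 1, 1 and 0, and for the last of these limma gave 13 members higher at an unadjusted p below 0.05. Each of the 6 genes that rose missed the threshold in at least 1 of these fits, with adjusted p in limma of 0.158 for Rpl3, 0.0997 for Rpl30, 0.0687 for Rps7, 0.116 for Rps14, 0.105 for Rps19 and 0.146 for Rps3a1 at the highest. With 3 arrays a line, an exact permutation test of a single gene cannot go below a p of 0.1.

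A second limit concerns which copy of a gene a probe set reads, since the genome holds many near-identical inactive copies of ribosomal protein genes. Probe set numbers on this array follow the chromosomes. For 99.0% of all probe sets with a placed gene, the commonest chromosome among the 10 neighbours in number order was the gene's own. This held for 47 of the 69 members. For the other 22, the brightest probe set, used here, lay among genes of another chromosome, and these include Rpl3 (a gene of chromosome 15, neighbours on X), Rps19 (7, neighbours on 14) and Rps3a1 (3, neighbours on 13). Whether these sets read the gene, a copy or both was not tested.

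Of the 22, 18 also had a probe set among neighbours of their own chromosome. The other sets were dimmer, by a median of 4.06 on the log2 scale, and 3 of them lay below log2 5.20. Their median SE was 0.11, against 0.08 for the sets used. The difference between the lines was positive by both sets for 16 of the 18 and of opposite sign for 1, Rps28. The median difference was 0.15 by the set used and 0.16 by the other. By the set used 3 passed, and by the other 0 in limma, with 3 at an unadjusted p below 0.05, all higher. For Rpl3 the other set gave 9.96 and 10.29, a difference of 0.33 (adjusted p 0.0834 in limma), and a further Rpl3 set, at 4.86 and so below log2 5.20, gave -0.022. For Rps19 it gave 0.18 (adjusted p 0.162) and for Rps3a1, where that set was below log2 5.20, it gave 0.09 (adjusted p 0.685). With such sets in place of the brightest, a choice made after the values were seen, 3 members passed (Rpl30, Rps7 and Rps14), 50 had a positive difference, and the median was 0.11.

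**Figure D4:**
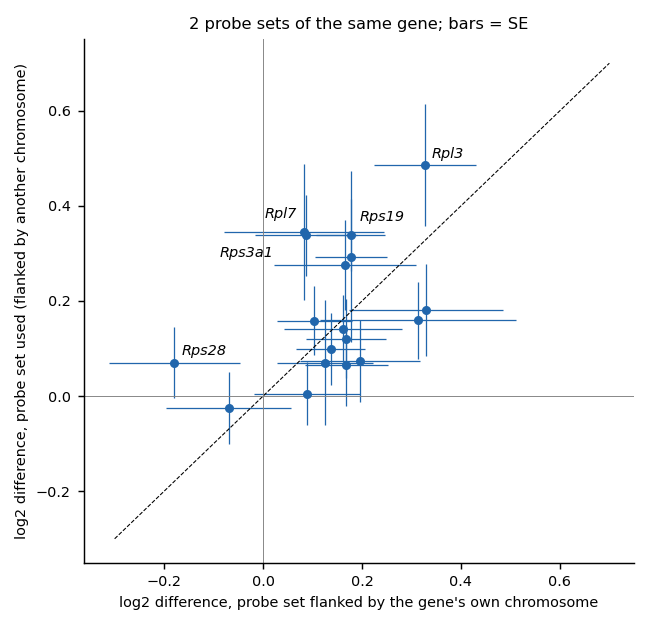
For 18 genes, the log2 difference (heterozygous minus wild type) by each of the probe sets compared, with bars for the SE. The axis labels name the sets: the brightest set, used in the report, and the set among neighbours of the gene's own chromosome. Of the 18, 16 are positive on both axes, and the genes that passed by the brightest set (3) did not pass by the other.

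Of 15 genes with -ps in the symbol, which the rule left out, 8 lay below log2 5.20. In all 1 (6.67%, beside 13.4% of all genes), Rps19-ps3, passed, 11 had a positive difference, and the median was 0.12. Rps19-ps3 is named after its values were seen: its signal was 7.06 ± 0.09 in the wild-type line and 7.71 ± 0.08 in the heterozygous line (SD, n = 3 each), a difference of 0.65 (adjusted p 0.0014 in limma), larger than that of Rps19 (0.34) and of every member (0.49 at most).

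Variant paralogs replace or accompany a standard ribosomal protein in some tissues. Of the 7 measured, 0 passed in limma (0 at an unadjusted p below 0.05), and their median difference was -0.02. Rps27l, a p53 target that binds Mdm2, had 9.28, 9.32 and 9.20 against 9.17, 9.21 and 9.20, a difference of -0.07 (adjusted p 0.625). Rpl22l1, the paralog of Rpl22, differed by 0.01 (interval -0.16 to 0.18), while Rpl22 differed by 0.25 (adjusted p 0.182). Rpl7l1, which takes part in large subunit assembly, differed by -0.02, with wild-type replicate 1 at 9.32 against 8.94 and 8.81. Rpl39l differed by -0.11 and Rps4l by -0.04. Rpl10l and Rpl3l, known from testis and from striated muscle, were below log2 5.20 in both lines and differed by 0.06 and 0.01.

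The remaining 4 members matched the rule by name. Rps19bp1, a nucleolar protein that binds Rps19 and is no part of the ribosome, had a difference of 0.16 without overlap (adjusted p 0.292 in limma). Rpl6l, Rpl32l and Rps23rg1 differed by 0.04, -0.04 and -0.12. Without these 4 and the paralogs, 58 standard genes were left, of which 6 passed and 46 had a positive difference, with a median of 0.14.

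Some ribosomal proteins are known to bind Mdm2 and so to hold p53 active when ribosome assembly fails. Of the 7 genes in this list, 6 were measured and 2 passed, Rps7 and Rps14, both higher. Of all genes 13.4% passed, and of those at or above the 40th percentile 18.7%. Rpl5 and Rpl11, which form the best known of these complexes with 5S RNA, differed by 0.06 each, with adjusted p of 0.806 and 0.747 in limma and overlapping arrays. A second list held 7 ribosomal proteins whose mutation is known to change pigmentation in mice, of which 6 were measured and 2 passed, Rps19 and Rps7. Rps7 is thus in both lists, and with 6 genes in each the counts were not tested against the shares above. Rps20, in which a mutation darkens the skin, had 6.28, 6.26 and 6.32 against 6.37, 6.39 and 6.36. The groups were separated by a small gap, and the difference was 0.08 (interval -0.07 to 0.24, adjusted p 0.509 in limma). Rps6 is described above, Rpl27a differed by 0.20 (adjusted p 0.241) and Rpl38, whose loss causes the Tail-short phenotype, by 0.03 (adjusted p 0.873).

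Downstream of that surveillance, 15 genes of p53 regulation and response were measured, of which 5 were lower, 2 higher and 8 did not pass, with a median of -0.19. Called were 46.7% of this list, beside 18.7% of genes at or above the 40th percentile. With 1 array left out, 4 to 6 were lower and 0 to 2 higher. Cdkn1a, the p53-induced inhibitor of cyclin-dependent kinases, fell by 0.89 (adjusted p 9.95e-05 in limma), and Tnfrsf10b, a death receptor, fell by 1.96 (1.22e-05). Kitl, the ligand of the melanocyte receptor Kit, fell by 2.92 (9.77e-05), from 8.71 ± 0.44 to 5.78 ± 0.31 (SD, n = 3 each). Kit itself, named after its values were seen, rose by 2.29 (adjusted p 0.00092). Mdm2 differed by -0.27 (adjusted p 0.111), and Trp53 is not analysed here.

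Genes that build the ribosome included some with larger differences than any member. Of 37 ribosome biogenesis genes measured, 7 were higher and 0 lower (0 at an unadjusted p below 0.05, limma), 32 had a positive difference, and the median was 0.22. The 7 are 18.9% of the list, where 10.5% of genes at or above the 40th percentile were called higher and 18.7% in either direction. Without wild-type replicate 2 the count higher was 15, and without any other array it was 2 to 4 (2 without heterozygous replicate 2 or 3, 3 without heterozygous or wild-type replicate 1, and 4 without wild-type replicate 3). Nop2, a methyltransferase of 28S RNA, rose by 0.87 (adjusted p 0.00203 in limma), Nhp2, a protein of pseudouridine-guiding particles, by 0.54 (0.0195), and Nop56, of methylation-guiding particles, by 0.44 (0.00722). Of 15 genes of RNA polymerase I and its factors, 2 (13.3%) were higher: Taf1b rose by 0.92 (adjusted p 0.00234 in limma) and Polr1c by 0.37 (0.0142). Fau, a ribosomal protein gene outside the naming rule, differed by 0.10 (adjusted p 0.582).

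Of 50 translation initiation genes, 7 were higher and 2 lower, with a median of 0.05. Eif4e3, a cap-binding protein, rose by 1.75 (adjusted p 2.17e-06 in limma) and Eif5a2 by 0.75 (0.000392). Eif2s3y, a Y-linked gene for a subunit of Eif2, was at 9.28 ± 0.28 in the wild-type line and 4.43 ± 0.23 in the heterozygous line (SD, n = 3 each), so that the sex of the lines cannot be told apart from genotype. Of 14 elongation factors and other genes with a pyrimidine tract, 1 was higher, Eif3e by 0.34 (adjusted p 0.0208). Of 18 tRNA synthetases, Gars rose by 0.49 and Wars fell by 0.35. Of 71 mitochondrial ribosome genes, 6 were higher and 3 lower, with a median of 0.07, among them Mrps35 (0.67), Mrpl19 (0.62) and Mrps16 (-0.94). The count higher in that list was 14 without wild-type replicate 2, 3 without wild-type replicate 3, 2 without wild-type replicate 1, and 1 without any single heterozygous array. Leaving out 1 array gave 3 to 7 initiation genes higher and 1 to 4 lower, 0 or 1 higher in the elongation list, and 1 to 4 of the RNA polymerase I list. Called in either direction were 18.0% of the initiation, 7.14% of the elongation, 11.1% of the tRNA synthetase and 12.7% of the mitochondrial list. Over all genes this share was 13.4%, and at or above the 40th percentile 18.7%.

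**Figure D5:**
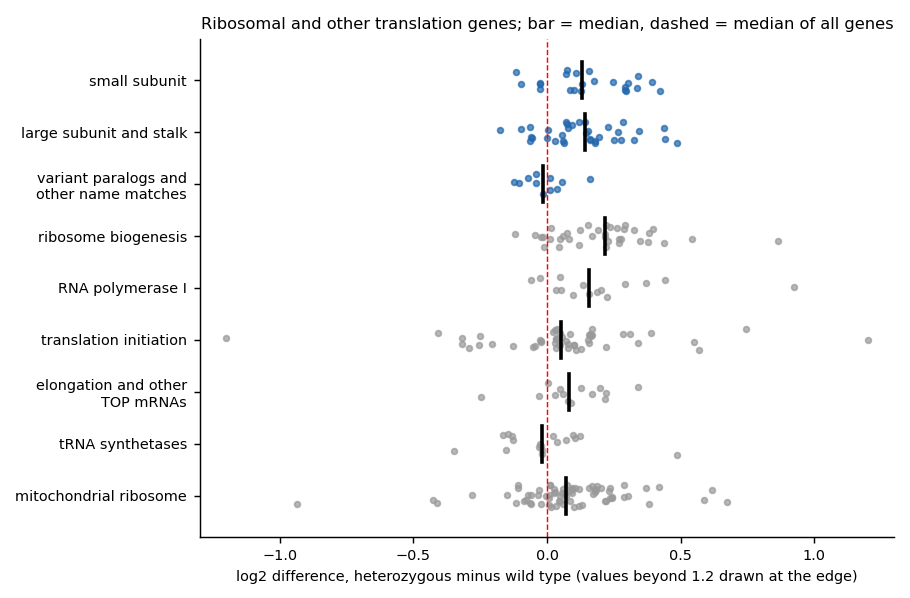
Log2 difference (heterozygous minus wild type) of each gene by list, with a bar for the median of the list, a dashed line for the median of all genes, and genes beyond 1.2 in size drawn at the edge. The bars stand at 0.13 and 0.14 for the small and large subunit and at 0.22 for ribosome biogenesis, and the variant paralogs lie around 0.

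Of 21 genes around Myc, mTOR and the S6 kinases, which set ribosome production, 3 were higher and 1 lower (1 to 3 higher and 0 or 1 lower with 1 array left out). That is 19.0% of the list, beside 18.7% of genes at or above the 40th percentile. Mycn rose by 0.72 (adjusted p 0.00178 in limma) and Rps6ka5, a nuclear kinase whose symbol the rule leaves out, by 0.59 (0.0408), and Deptor, an inhibitor of mTOR, fell by 0.91 (0.0342). Myc, named after its values were seen, rose from 9.30 ± 0.03 to 9.66 ± 0.05 (SD, n = 3 each, adjusted p 0.0135). Rps6kb2 differed by -0.14 (adjusted p 0.262), and Rps6kb1 is not analysed here.

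Sox10 itself was at 9.91 ± 0.10 in the wild-type line and 9.73 ± 0.05 in the heterozygous line (SD, n = 3 each), a difference of -0.18 (adjusted p 0.213 in limma). Melanocyte markers were present in both lines: 4 of 10 were lower and 1 higher in the heterozygous line, 7 had a negative difference, and the median was -0.24. Their summed linear signal was 35673 to 40968 in the wild-type and 33617 to 34201 in the heterozygous arrays. Of 10 fibroblast markers 4 were higher and 3 had a negative difference, 1 of these at an unadjusted p below 0.05 in limma. Their median was 0.62, and they summed to 948 to 1204 against 6157 to 6294. Endothelial and smooth muscle markers (4 of 10 higher, 3 with a negative difference, median 0.18) summed to 573 to 602 against 5977 to 6316. The latter sum was almost all Acta2, which rose by 5.34: without it the range was 437 to 455 against 517 to 561. Glial markers (4 of 8 lower, 8 with a negative difference) summed to 6172 to 7193 against 1773 to 1819. Leukocyte markers (2 of 9 higher, 4 with a negative difference) summed to 428 to 464 against 617 to 660. Keratinocyte markers (0 of 9 passed in limma, 1 higher and 1 lower at an unadjusted p below 0.05) summed to 568 to 717 against 619 to 694. Of all genes 13.4% passed. Without the gene that differed most in its list, fibroblast markers (Dcn left out) summed to 921 to 1173 against 4403 to 4517, glial markers (Gjc3) to 3078 to 3754 against 1724 to 1765, and leukocyte markers (Cd68) to 285 to 323 against 284 to 294. Below log2 5.20 were 3 fibroblast markers in the wild-type and 1 in the heterozygous line, 3 endothelial and smooth muscle markers in each, and 5 keratinocyte and 5 leukocyte markers in each. The part of these differences in the ribosomal protein values was not tested.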

How the data were processed

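Biotin-labelled RNA of 6 samples was hybridised to Affymetrix arrays, and the deposited values are log2 signals, 1 per probe set, made by the authors with RMA. RMA and Partek are named in the submitters' processing notes, while versions, settings, genome build and test are, in the sources used here, not given. RMA corrects background and makes arrays alike, so a shift common to most genes is not visible. Array medians lay between 5.72 and 5.78, and an array gives no counts: the number of arrays limits the precision. Of 41345 probe sets, 23521 had 1 symbol in the platform annotation, 1814 several and 16010 none, and 0 symbols needed updating through the RefSeq gene table of GRCm38.p6, where 193 had no Entrez match. For 1082 genes with several sets the brightest over 6 arrays was used, leaving 22180 genes.

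The comparison used lmFit and eBayes of limma (3.58.1, R 4.3.3; 2-sided, 4 residual and 7.87 total degrees of freedom), with Benjamini-Hochberg adjustment over all genes. The fit was tested on simulated data. Members, lists, tests and alternatives were chosen with earlier results of these data known, so lists are described by counts and medians, with no test. Genes named were the members that passed, all paralogs, Mdm2-binding and pigmentation members, the 3 brightest and 3 dimmest, up to 3 passing genes of each other list outside the cell type markers (2 of the highest signal where none passed), Sox10, Rps6kb1, Rps6kb2, Trp53 and Mdm2. From the marker lists only Dcn, Gjc3, Cd68 and Acta2 were named, each the gene that differed most in its list. Other members named were chosen after their values were seen. Replicate numbers were shared by the lines, but same-numbered arrays did not deviate together (r of 0.007, 0.016 and -0.004), so no block was used. Sequences came from RefSeq, and the planned protein identities were not computed, as no protein table was used here. Alternatives were other scalings, probe set rules, variance estimates, thresholds, leaving out 1 array at a time, and a replicate block.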

Additional observations from a re-analysis of the deposited data

How the results depend on the processing

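In every alternative 0 members were lower at an adjusted p below 0.05, and the median difference of the members stayed positive, from 0.06 without wild-type replicate 3 to 0.14 without wild-type replicate 2. The count of 6 ribosomal protein genes higher became 3 with the dimmest probe set of each gene, 1 (Rps19) without variance moderation, 3 with the probe set among its own chromosome's neighbours, 0 at an adjusted p below 0.01, 11 at one below 0.10, 0 at 1.5-fold or more, and 0 to 10 with 1 array left out. With 0 called at 0.01 or at 1.5-fold, limma gave 17 at an unadjusted p below 0.05. With a replicate block 3 passed (Rpl3, Rpl30 and Rps7), and the adjusted p was 0.0898 for Rps3a1, 0.0639 for Rps19 and 0.0708 for Rps14. Rpl3 reversed to -0.022 with its dimmest probe set and Mrps16, in the mitochondrial list, to 0.21. Over all alternatives the adjusted p in limma ran from 0.0015 to 0.932 for Rpl3, 0.0124 to 0.103 for Rpl30, 0.0031 to 0.0687 for Rps7, 0.0197 to 0.116 for Rps14, 0.0123 to 0.171 for Rps19 and 0.0246 to 0.69 for Rps3a1. Of the 63 members that did not pass, 9 passed and 23 changed sign under some alternative. All genes called (2967) became 1717 without moderation, 1588 at 0.01, 1536 at 1.5-fold and 1768 to 4222 with 1 array left out. The 40 genes called in the other translation lists became 16 at 0.01, 16 at 1.5-fold and 16 to 61 with 1 array left out. Array weights gave 15 ribosome biogenesis and 12 mitochondrial ribosome genes higher, in place of 7 and 6. Median centring moved the median of all genes to 0.03. The causes of these changes were not tested. Low signal limits Rps29, Rpl10l, Rpl3l and Rpl32l, which lay below log2 5.20. Of the genes that passed, Rpl30 was not far above that level, at a mean of 5.75, and Rps14 was at 6.59. The median signal was 6.16 over all genes and 9.14 over the members.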

Other observations

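The 5 members on chromosome 15, which also carries Sox10, were looked at after their values were seen. Rpl3, Rpl37, Rpl30, Rpl8 and Rps19bp1 had differences of 0.49, 0.44, 0.44, 0.16 and 0.16, with a median of 0.44, and 2 of them passed. Of the 839 genes measured on that chromosome, 7.87% were called higher, and their median difference was 0.01. By its probe set among chromosome 15 neighbours, Rpl3 differed by 0.33. On chromosome 6, where 20.6% of 1201 genes were higher, the members Rpl32 and Rps4l differed by 0.33 and -0.04, and neither passed. Nop2, Eif4e3, Gars, Mrps35 and Mrpl19, named among the other lists, are genes of chromosome 6.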
